A study of Mus musculus with 6 samples.

Results

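The B cell and plasma cell genes described here are Pou2af1, Jchain, Ighm, Mzb1, Cd79a, Cd79b, Ms4a1, Pax5 and Pigr. Every probe set (the group of oligonucleotides that reads 1 transcript on the array) that the platform annotation assigns to exactly 1 gene symbol, that symbol being among these 9 genes, was taken. This gave 20 probe sets of 8 genes, out of 22626 probe sets and 12393 genes. Ighm had 11 probe sets, Ms4a1 and Pigr had 2 each, Pou2af1, Jchain, Cd79a, Cd79b and Pax5 had 1 each, and Mzb1 had none by this rule. The samples were snap-frozen mammary tumours of adult female F1 mice from 2 crosses, (AKR/J x PyMT)F1 and (DBA/2J x PyMT)F1, with 3 samples and 1 Affymetrix array per sample in each cross. The mice of both crosses descend from a PyMT parent. PyMT is the polyomavirus middle T antigen, a transgene that gives mice mammary tumours, and there was no tumour-free or transgene-free group. The promoter of the transgene, the strain background of the PyMT parent and the exact ages of the mice are not given in the sources used here. The comparison asks which transcripts differ at a basal level between tumours of the 2 genotypes. Each sample's title carries a number of its own, but the labels do not say whether that number stands for an animal, a tumour or an RNA preparation. The p-values therefore reflect only how these samples vary, and part of that variation may be technical.

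B cells carry membrane immunoglobulin on their surface together with the signalling chains Cd79a and Cd79b, and mature into plasma cells that secrete antibody. Pax5 is the transcription factor that holds cells in the B cell state, Ms4a1 encodes the surface antigen CD20, and Pou2af1 encodes a coactivator that works with Oct factors at immunoglobulin promoters. Ighm encodes the heavy chain of IgM. The J chain links the units of polymeric IgA and IgM, and Pigr, made by epithelial cells and not by B cells, carries such polymers across the epithelium, in the mammary gland into milk.

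Tissue markers were read first. The luminal epithelial marker list had 10 of 10 genes measured. Its array means ran from 11.21 to 11.63 in AKR and from 11.16 to 11.44 in DBA F1 tumours (deposited log2 values). Epithelial transcripts thus read high on every array. No array of another tissue was there for comparison, so these values cannot tell mammary tumour from other epithelium. A pair of arrays stood apart. On AKR replicate 2 the salivary gland list, with 20 of 31 genes measured, had a mean of 9.58, against 6.20 to 7.20 on the other arrays. On DBA replicate 1 the skeletal muscle list (8 of 8 genes) had a mean of 11.71 against 6.06 to 9.92 elsewhere, and the adipocyte list (5 of 7 genes) 8.67 against 6.16 to 6.98. In whole tumours, fewer cells of a type and less RNA per cell cannot be told apart. The values of probe sets below the median level also stood highest on AKR replicate 2 in 51.2% of cases, against 32.4% of all probe sets, and the spread of values was smallest on that array (SD 1.76, against 1.90 to 2.02).

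None of the 20 member probe sets passed an adjusted p of 0.05 between crosses (limma, Benjamini-Hochberg over all probe sets), where 22 of 22626, or 0.0972%, passed in the whole table (0.0619% with DBA F1 tumours higher). At an unadjusted limma p under 0.05 there were 5 of 20 member probe sets, against 26.1% of all probe sets, also near the background. These 5 were the single probe sets of Pou2af1 and Pax5, both of Pigr and 1 of 11 of Ighm. The crosses were without overlap (all 3 values of one above all 3 of the other) at 8 of 20 member probe sets, against 39.2% of all probe sets, so the members' share was near the background. Of these 8, 3 were higher in DBA F1 tumours (Pou2af1 and both of Pigr) and 5 higher in AKR F1 tumours (Pax5 and 4 of Ighm), with backgrounds of 15.8% and 23.4%. The members' median difference of AKR minus DBA was -0.23 on the log2 scale, beside 0.05 over all probe sets, with 12 of 20 lying higher in DBA F1 tumours.

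**Figure D1:**
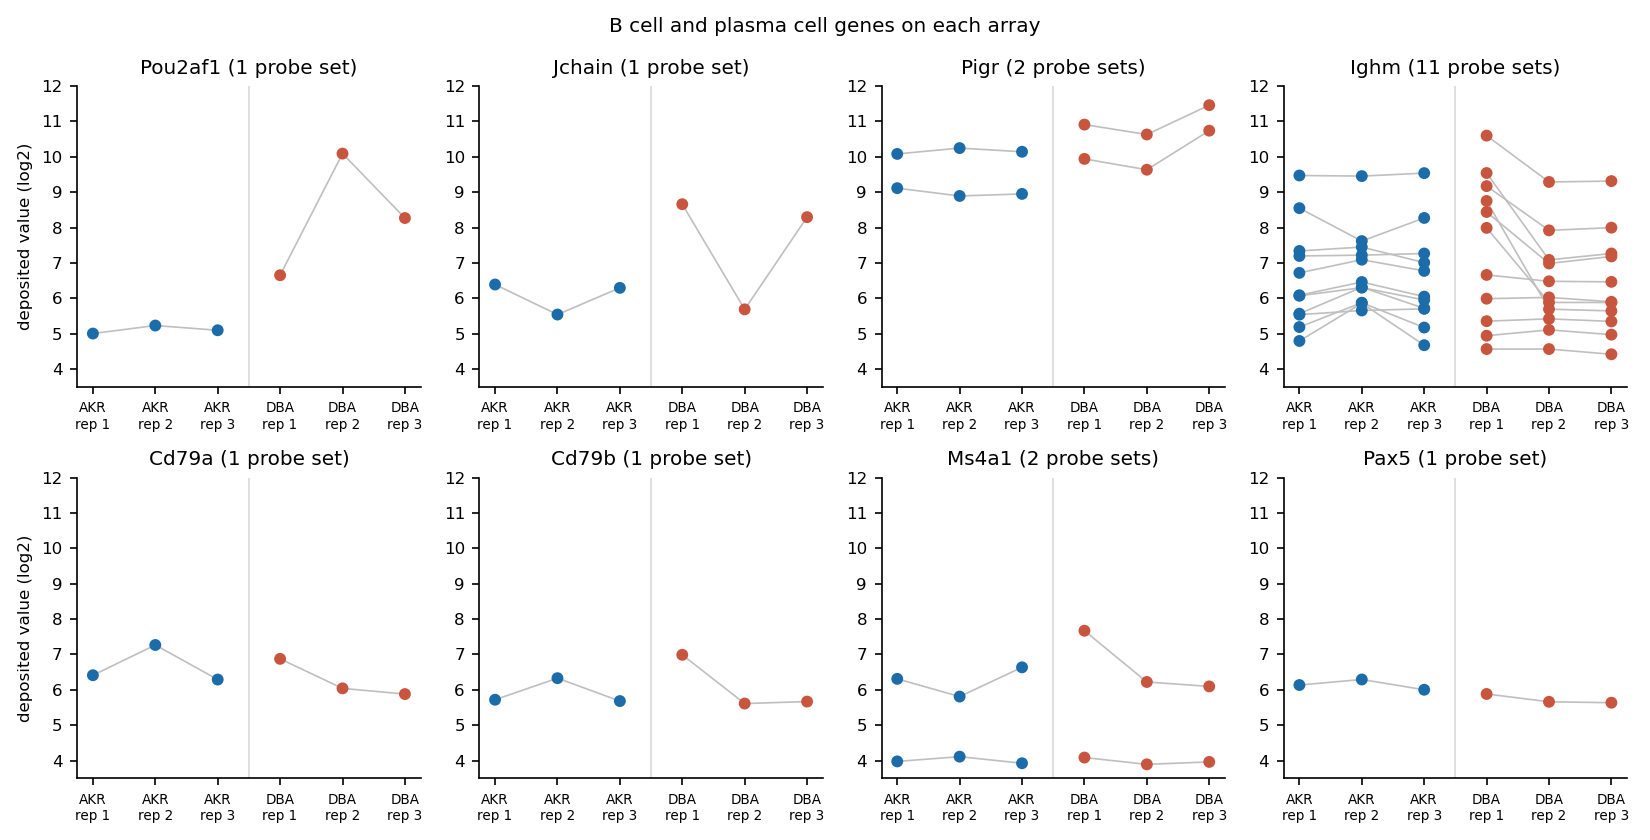
Deposited log2 value (vertical axis) of every member probe set on each of the 6 arrays (horizontal axis, AKR F1 blue, DBA F1 red), where grey lines only link the values of 1 probe set within a cross. Pou2af1 sits near 5 on all AKR arrays and between 6.65 and 10.09 on DBA arrays, Jchain is high on DBA replicates 1 and 3, and 6 of the Ighm probe sets are highest on DBA replicate 1.

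The regions just before the transcription start are shown for Pou2af1, Jchain and Pigr, the 3 members with the largest differences at their brightest probe set. A further region is that of Ifit3, one of the genes whose values ran most like those of Pou2af1. The regions of Ifit2, which ran closest to Pou2af1, held no match to the motifs below and are not shown. Each is the stretch of 250 bases before the start in the RefSeq promoter table for mouse build GRCm38.p6, which held 5 of the 9 members (Pou2af1, Jchain, Pigr, Cd79a and Pax5). Capitals mark matches on either strand to the motifs searched: the octamer ATGCAAAT bound by Oct factors, its last part TGCAAAT (added after the sequence was seen, and contained in the octamer), the interferon-stimulated response element core GAAANNGAAA, the cAMP response half-site TGACG and the E-box CACGTG.
Pou2af1, chr9:51213440-51213689, plus strand: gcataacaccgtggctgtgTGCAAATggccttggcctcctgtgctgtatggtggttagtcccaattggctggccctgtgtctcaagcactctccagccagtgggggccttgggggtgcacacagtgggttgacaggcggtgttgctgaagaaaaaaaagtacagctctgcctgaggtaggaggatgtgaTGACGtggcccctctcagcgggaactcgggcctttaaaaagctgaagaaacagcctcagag
Jchain, chr5:88527898-88528147, minus strand: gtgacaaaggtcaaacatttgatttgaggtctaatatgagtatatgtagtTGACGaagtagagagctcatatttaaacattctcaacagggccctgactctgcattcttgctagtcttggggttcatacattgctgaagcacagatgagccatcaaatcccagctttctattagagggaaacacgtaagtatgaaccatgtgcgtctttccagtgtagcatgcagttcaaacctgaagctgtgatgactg
Pigr, chr1:130826434-130826683, plus strand: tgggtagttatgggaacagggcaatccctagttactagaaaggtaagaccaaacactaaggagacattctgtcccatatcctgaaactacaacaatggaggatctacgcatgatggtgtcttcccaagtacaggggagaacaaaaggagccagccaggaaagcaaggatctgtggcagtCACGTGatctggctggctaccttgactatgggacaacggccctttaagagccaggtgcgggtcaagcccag
Ifit3, chr19:34583279-34583528, plus strand: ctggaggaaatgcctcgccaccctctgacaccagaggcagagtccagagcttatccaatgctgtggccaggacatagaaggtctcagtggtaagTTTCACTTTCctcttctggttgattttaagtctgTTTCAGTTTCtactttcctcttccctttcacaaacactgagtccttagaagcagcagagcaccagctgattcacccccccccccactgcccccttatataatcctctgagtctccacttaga

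The full octamer lay in none of the 5 member windows and in 1.6% of all 32851 promoter windows of this length. TGCAAAT lay in 1 member window, that of Pou2af1, and in 3.56% of all. The response element core lay in none of the 5 member windows and in 2.98% of all. Among the 5 genes most like Pou2af1 it lay in the windows of Ifit3 and Bst2, and not in those of Ifit2, Tpm2 and Prnp. TGACG lay in the windows of Pou2af1, ending 56 bases before the start, and Jchain, 195 bases before it, against 17.8% of all. The E-box lay in that of Pigr, 65 bases before the start, against 6.02% of all. A match is a description of letters and not a bound site, and the absence of a match says only that these letters are not in this window.

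Pou2af1 was the member whose crosses lay furthest apart. Its values were 5.0, 5.23 and 5.10 on AKR arrays (replicates 1 to 3) and 6.65, 10.09 and 8.27 on DBA arrays. The groups did not overlap. The 3 AKR values lay close together, whereas the DBA values were spread widely, with replicate 2 highest and replicate 1 lowest. The means were 5.11 ± 0.11 and 8.34 ± 1.72 (SD, n = 3 each), a log2 difference of -3.23 (SE 0.768, 95% interval -5.05 to -1.40). As a ratio of deposited values this is 9.36-fold higher in DBA F1 tumours, with an interval of 2.64 to 33.1-fold. The AKR values lay below the lower quartile of their own arrays (6.20 to 6.38), and whether the probe set reads transcript at that level was not tested, so the size of the fold is uncertain. The limma adjusted p was 0.103, so the difference did not pass.

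Single arrays moved the Pou2af1 result. Without DBA replicate 1 the difference was -4.07 and passed (limma adjusted p = 0.0274), when 263 of 22626 probe sets passed in the whole table, and without DBA replicate 2 it was -2.35 (limma adjusted p = 0.108). Over the settings tried the limma adjusted p ran from 0.00401 to 0.382, and the direction was the same in all of them. The lowest came with array weights, under which 9969 of 22626 probe sets passed. On DBA replicate 2, where Pou2af1 was highest, the immunoglobulin genes did not stand high, as described below: Jchain read 5.69 and the 3 Igha probe sets had a mean of 7.24, their lowest over the 6 arrays. Of the Oct factor partners of Pou2af1, only Pou2f2 is given here. The Oct factor gene Pou2f2 read 7.34, 8.10 and 7.05 on AKR arrays, against 7.0, 6.92 and 6.81 on DBA arrays (difference 0.59, limma adjusted p = 0.206).

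The genes whose values over the 6 arrays ran most like those of Pou2af1 were taken from the 731 single-symbol probe sets of other genes with a range of at least 2 log2 units. By Pearson's r over 6 arrays they were Ifit2 (0.995), Bst2 (0.993), Tpm2 (0.992), Ifit3 (0.990) and Prnp (0.987). Ifit2, Ifit3 and Bst2 are interferon-induced antiviral genes, Tpm2 encodes a tropomyosin of contractile filaments and Prnp the prion protein. These r are descriptions of 6 arrays from 2 groups that lie apart, and the choice by r fixes that these genes share the course of Pou2af1. Ifit2 read 5.96, 6.09 and 5.84 on AKR arrays, against 7.08, 8.97 and 8.11 on DBA arrays. Ifit3, whose promoter is shown above, read 7.15, 7.39 and 7.32 on AKR arrays, against 8.83, 10.79 and 9.87 on DBA arrays (difference -2.55, limma adjusted p = 0.0837). Bst2 read 8.09, 7.94 and 7.97 on AKR arrays, against 8.79, 10.04 and 9.37 on DBA arrays. The shared order of the arrays follows from how these genes were chosen.

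**Figure D2:**
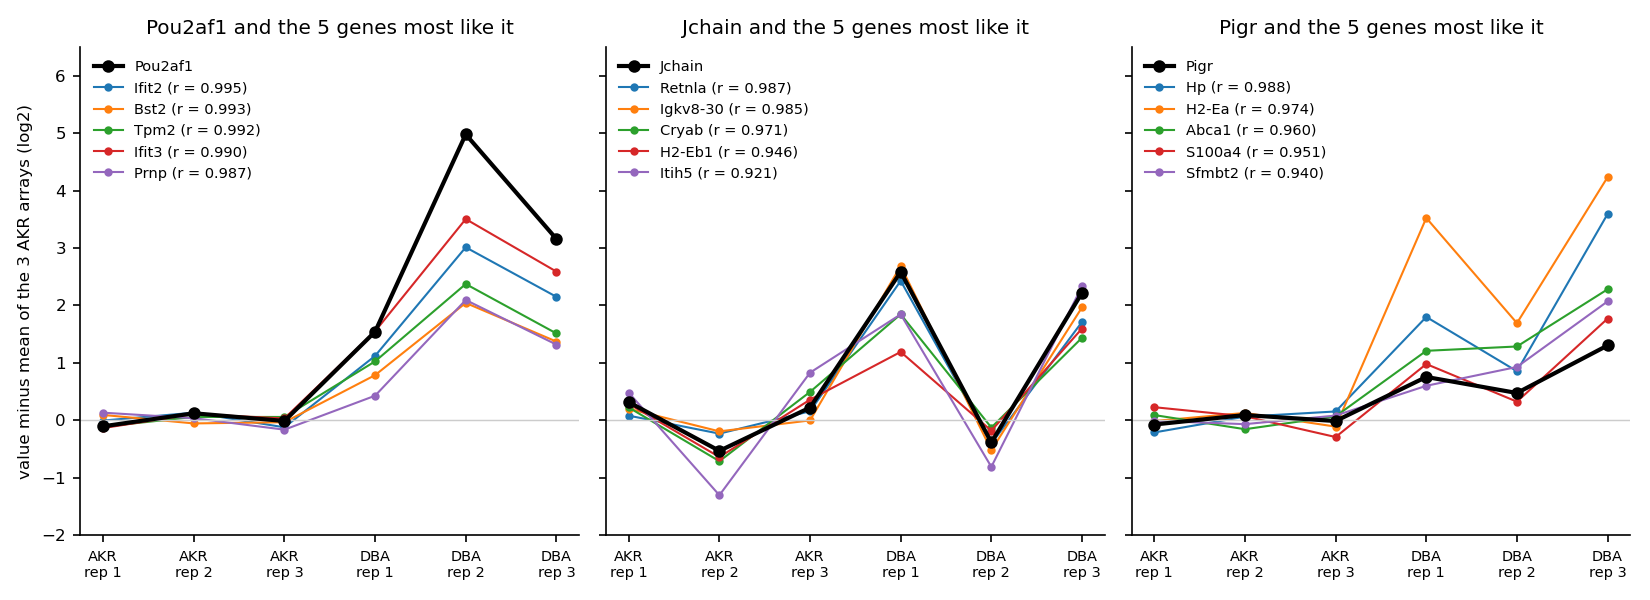
Values on each array minus the mean of the 3 AKR arrays (vertical axis, log2) for Pou2af1, Jchain and Pigr (black) and, in colour, the 5 genes most like each by Pearson's r over the 6 arrays (horizontal axis). Pou2af1 and its 5 genes peak on DBA replicate 2, Jchain and its genes stand high on DBA replicates 1 and 3, and Pigr and its genes peak on DBA replicate 3.

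Jchain followed another course. It read 6.39, 5.54 and 6.30 on AKR arrays, against 8.66, 5.69 and 8.29 on DBA arrays. DBA replicates 1 and 3 stood above all other arrays, while DBA replicate 2 lay within the AKR range, so the groups overlapped. The means were 6.08 ± 0.47 and 7.55 ± 1.62 (SD, n = 3 each), and the difference of -1.47 (SE 0.751, 95% interval -3.26 to 0.31) did not pass (limma adjusted p = 0.241). The macrophage marker list (11 of 11 genes measured) had means of 9.38, 8.59 and 9.18 on AKR arrays, against 9.41, 8.91 and 9.56 on DBA arrays. It was lowest on replicate 2 of each cross, as Jchain was, and its part in the Jchain values was not tested. The luminal epithelial list was also lowest on replicate 2 of each cross. So were the B lineage transcription factor list and the plasma cell and secretory pathway list described below. Without DBA replicate 2 the Jchain difference was -2.40 (limma adjusted p = 0.0690) and without DBA replicate 1 it was -0.92 (limma adjusted p = 0.435).

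The 5 genes most like Jchain included a kappa light chain gene. They were Retnla (Pearson's r 0.987 over 6 arrays), a secreted protein gene of alternatively activated macrophages, Igkv8-30 (0.985), the small heat shock protein gene Cryab (0.971), the MHC class II gene H2-Eb1 (0.946) and Itih5 (0.921). Igkv8-30 read 6.21, 5.81 and 6.01 on AKR arrays, against 8.69, 5.49 and 7.97 on DBA arrays, high on the same arrays as Jchain. Retnla read 8.53, 8.22 and 8.61 on AKR arrays, against 10.88, 8.04 and 10.16 on DBA arrays. In both, DBA replicate 2 was the lowest of all 6 arrays. A further 3 probe sets, each annotated to several kappa genes at once and chosen after their values were seen, had the same high arrays. The files hold 8 such kappa probe sets, and the other 5 were highest on AKR replicate 2. The one of the 3 with the widest range read 7.92, 6.09 and 7.52 on AKR arrays, against 10.15, 5.42 and 9.51 on DBA arrays. Such probe sets can read near-identical genes, so the gene behind each signal is uncertain.

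Igha, the heavy chain gene of IgA, was read by 3 probe sets. Their mean was 8.08, 8.48 and 7.73 on AKR arrays, against 8.93, 7.24 and 9.89 on DBA arrays. DBA replicate 3 was highest, DBA replicate 1 next and DBA replicate 2 lowest, and the groups overlapped. The 3 probe sets differed by -0.27, -0.54 and -0.97 between crosses, with limma adjusted p of 0.783, 0.557 and 0.349. They disagreed on AKR replicate 2, where they read 9.44, 8.47 and 7.51. Without DBA replicate 3, the first differed by 0.23 and the second by 0.07, so both turned, and the first also turned without AKR replicate 3 (0.09).

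Ighm, the IgM heavy chain gene, did not show the Jchain course. At 6 of its 11 probe sets DBA replicate 1 was the highest array, against 14.5% of all probe sets. The mean of these 6 was 9.08 on DBA replicate 1 and between 7.14 and 7.36 on the other 5 arrays, DBA replicate 3 included. Their choice by highest array fixes that this mean peaks on DBA replicate 1. The clearest, 1425324_x_at, read 5.54, 5.66 and 5.70 on AKR arrays, against 8.75, 5.69 and 5.64 on DBA arrays. On DBA replicate 1 it lay 3.05 log2 units above the next array, and all the other values were within the range of 5.54 to 5.70. Its difference of -1.06 (SE 0.793) did not pass (limma adjusted p = 0.376), and without DBA replicate 1 it was -0.04. The next clearest, 1425247_a_at, read 7.20, 7.22 and 7.27 on AKR arrays, against 9.54, 7.09 and 7.27 on DBA arrays, again with only DBA replicate 1 apart. The brightest, 1427870_x_at, read 9.47, 9.45 and 9.54 on AKR arrays, against 10.60, 9.29 and 9.31 on DBA arrays. The gap from DBA replicate 1 to the next array ran from 0.62 to 3.05 log2 units over the 6. Of these 6, 3 carry the suffix x, by which the manufacturer marks probe sets that can match other transcripts. The 6 probe sets differed by -1.06 to -0.22. Without DBA replicate 1, 5 of them turned to the other side, with differences of 0.05 to 0.32, and 1427351_s_at also did so without AKR replicate 2 (0.05).

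The other 5 Ighm probe sets were highest on AKR replicate 2. Their differences ran from 0.14 to 0.59, and at 4 of them the AKR values lay wholly above the DBA values. Over all probe sets this held for 23.4%. Grouping them by an AKR array as the highest leans both the differences and this count toward AKR, so nothing is read from them. The widest of the 5, 1426196_at, read 4.80, 5.86 and 4.68 on AKR arrays, against 4.57, 4.57 and 4.42 on DBA arrays. The 1 with an unadjusted limma p under 0.05, 1425385_a_at, read 5.57, 6.31 and 5.72 on AKR arrays, against 5.35, 5.42 and 5.35 on DBA arrays (difference 0.49, limma adjusted p = 0.188). Probe sets 1426196_at, 1425385_a_at, 1427869_at and 1451949_at lay below the lower quartile of every array, which was 6.07 to 6.38. Whether they read transcript at this level was not tested. Of 31 further immunoglobulin probe sets with 1 symbol, 19 were likewise highest on AKR replicate 2 and 6 on DBA replicate 1. AKR replicate 2 was highest at 32.4% of all probe sets and at 51.2% of those below the median level. None of the 31 passed, also none at an unadjusted limma p under 0.05, and their median difference was 0.12, beside 0.05 over all probe sets and 0.18 over those below the median level. Among the 6 of the 31 highest on DBA replicate 1, Ighv14-2 was named for its values. Like the 6 Ighm probe sets highest there, it stood apart on that array only. It read 4.98, 5.05 and 4.74 on AKR arrays, against 6.62, 4.87 and 4.80 on DBA arrays.

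**Figure D3:**
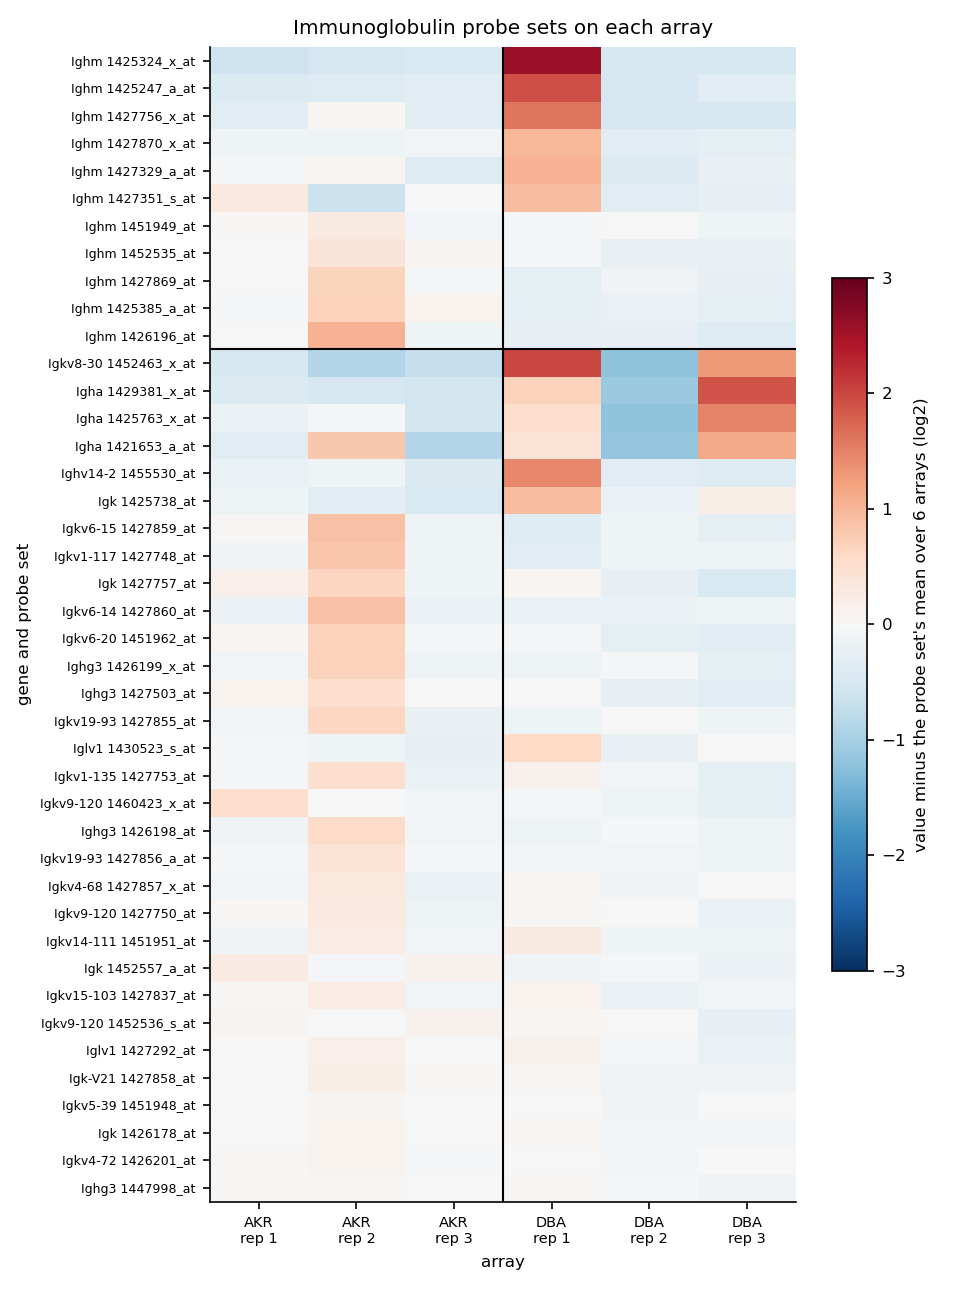
Value of each immunoglobulin probe set on each array (columns) minus its own mean over the 6 arrays (colour, log2; red above, blue below), with the 11 Ighm probe sets over the black line and 31 others under it. The first 6 Ighm rows are strongest on DBA replicate 1, Igkv8-30 and Igha are red on DBA replicates 1 and 3, and 19 of the 31 lower rows are highest on AKR replicate 2.

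The B cell surface genes Cd79b and Ms4a1 also had their highest value on DBA replicate 1. Cd79b read 5.72, 6.33 and 5.68 on AKR arrays, against 6.99, 5.61 and 5.67 on DBA arrays. The groups overlapped and differed by -0.18 (SE 0.393, limma adjusted p = 0.765), or by 0.27 without DBA replicate 1. Ms4a1 at its brighter probe set read 6.31, 5.81 and 6.64 on AKR arrays, against 7.67, 6.22 and 6.10 on DBA arrays, a difference of -0.41 (SE 0.440, limma adjusted p = 0.528), or of 0.09 without DBA replicate 1. Its other probe set stayed between 3.89 and 4.11 on all 6 arrays, and the pair disagreed on DBA replicate 1.

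Cd79a, the partner of Cd79b in the receptor, read 6.41, 7.27 and 6.29 on AKR arrays, against 6.88, 6.04 and 5.88 on DBA arrays. AKR replicate 2 was highest and DBA replicate 1 next, and the groups overlapped (difference 0.39, SE 0.348, limma adjusted p = 0.451). Without AKR replicate 2 the difference was 0.09. Pax5 read 6.14, 6.29 and 6.0 on AKR arrays, against 5.88, 5.66 and 5.64 on DBA arrays. Its groups did not overlap, but they lay close, at 6.14 ± 0.15 and 5.73 ± 0.14 (SD, n = 3 each), a 1.33-fold difference (log2 0.42, SE 0.135, 95% interval 0.10 to 0.74) that did not pass (limma adjusted p = 0.141). After quantile normalization it was 0.24. Pax5 lay below the lower quartile of every array (6.07 to 6.38), and whether its probe set reads transcript at that level was not tested. Of all probe sets below the median level, 72.1% lay higher in AKR F1 tumours.

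Pigr, the epithelial receptor for polymeric antibody, had 2 probe sets whose order agreed over the DBA arrays but was opposite over the AKR arrays. The one with the higher mean read 10.08, 10.25 and 10.14 on AKR arrays, against 10.91, 10.63 and 11.46 on DBA arrays. The other read 9.11, 8.89 and 8.95 on AKR arrays, against 9.94, 9.63 and 10.74 on DBA arrays. At both, every DBA value lay above every AKR value, and DBA replicate 3 was highest. The differences were -0.84 (SE 0.215, 95% interval -1.35 to -0.33) and -1.12 (SE 0.276, 95% interval -1.78 to -0.46), with the DBA F1 tumours higher by 1.79-fold and 2.17-fold. Neither passed (limma adjusted p = 0.110 and 0.105). No array that was left out turned the direction, and the differences then ran from -1.03 to -0.61 at the first and from -1.35 to -0.80 at the second. The luminal epithelial list read 11.41, 11.16 and 11.44 on DBA arrays and 11.61, 11.21 and 11.63 on AKR arrays. Within the DBA arrays its order was that of Pigr, with replicate 3 highest and replicate 2 lowest, whereas between crosses it was not higher in DBA F1 tumours. Its part in the Pigr values was not tested.

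The 5 genes most like Pigr were Hp, which encodes the acute phase protein haptoglobin (Pearson's r 0.988 over 6 arrays), the MHC class II gene H2-Ea (0.974), the cholesterol exporter gene Abca1 (0.960), the calcium-binding protein gene S100a4 (0.951) and Sfmbt2 (0.940). Hp read 8.28, 8.56 and 8.65 on AKR arrays, against 10.30, 9.35 and 12.09 on DBA arrays. H2-Ea read 6.76, 6.90 and 6.66 on AKR arrays, against 10.30, 8.47 and 11.01 on DBA arrays. At MHC genes inbred strains differ in sequence, and whether probe mismatches had a part in these values was not tested. All 5 had DBA replicate 3 as their highest array, like Pigr.

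**Figure D4:**
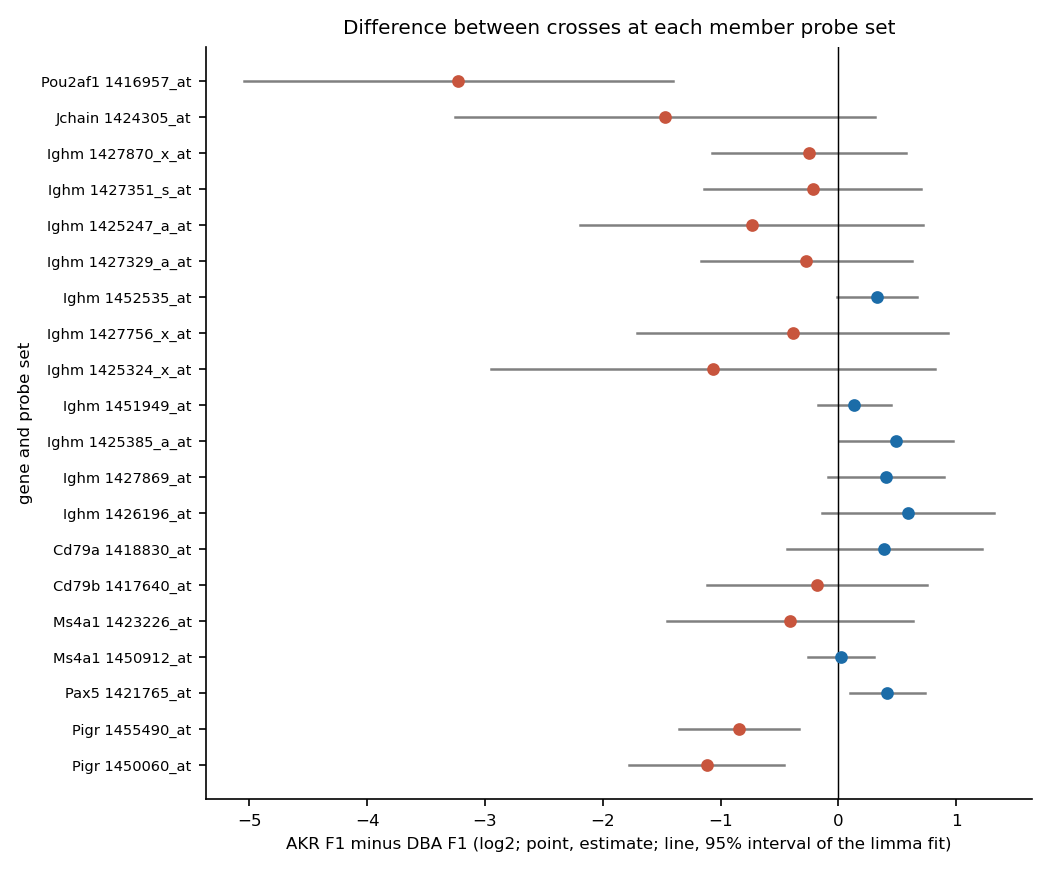
Difference of AKR minus DBA F1 tumours at each of the 20 member probe sets (horizontal axis, log2), with points for the estimate (blue, AKR higher; red, DBA higher) and lines for the 95% interval of the limma fit. The intervals of Pou2af1 and both Pigr probe sets lie wholly below 0, those of Pax5 and 1 Ighm probe set wholly above 0, and the other 15 cross 0, before any adjustment for the number of probe sets.

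The other genes of the B cell pathway were read from 6 lists with 98 measured genes. None passed over all probe sets by limma, and 22 of the 98 had an unadjusted limma p under 0.05, with the background of 26.1% given above. In B cell receptor signalling, 0 of 19 measured genes passed, with 13 higher in AKR F1 tumours and a median of 0.07. The adaptor gene Pik3ap1 differed by 0.64 (limma adjusted p = 0.177), the inhibitory receptor gene Cd22 by 0.25 and the phosphatase gene Inpp5d by 0.25. Among 17 measured transcription factor genes (median 0.02, none passed), Foxo1 differed by -0.85, Mef2c by -1.13 and Spi1 by 0.30. As the mean over each gene's probe sets, the differences were -0.45 for Foxo1, -0.40 for Mef2c and 0.30 for Spi1. Prdm1, which drives plasma cell formation, read 7.16, 6.35 and 7.44 on AKR arrays, against 7.72, 6.74 and 7.72 on DBA arrays, lowest in each cross on replicate 2.

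B cell precursor genes (7 measured, median 0.30) and genes of the mature B cell surface and survival (16 measured, median 0.22) lay mostly higher in AKR F1 tumours, in 6 of 7 and 13 of 16, and none passed. Over all probe sets 54.6% lay higher in AKR F1 tumours, and 72.1% of those below the median level, so nothing is read from these counts. AKR replicate 2 was the highest array at 6 of the 7 and 12 of the 16. This held for 32.4% of all probe sets and 51.2% of those below the median level. The part of that array's smaller spread in these medians was not tested. Rag2, of the enzyme that joins antigen receptor genes, differed by 0.61, Vpreb3 by 0.31 and Dntt by 0.30. The cytokine gene Lta differed by 0.69 (limma adjusted p = 0.126), Tnfrsf17, the plasma cell survival receptor BCMA, by 0.32 and Fcrla by 0.51. Tnfrsf17 read 6.37, 6.44 and 6.19 on AKR arrays, against 6.07, 5.98 and 5.98 on DBA arrays, without a high value on DBA replicates 1 or 3.

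Of 20 measured genes of plasma cells and the secretory pathway, which tumour epithelium also uses, 9 lay higher in the AKR cross and 11 in the DBA cross (median -0.14), and none passed. The members went both ways. Derl3, of the degradation machinery of the endoplasmic reticulum, read 9.07, 9.19 and 9.06 on AKR arrays, against 8.63, 8.24 and 8.46 on DBA arrays (difference 0.66, limma adjusted p = 0.0917). The chaperone gene Hsp90b1 read 10.70, 9.63 and 10.18 on AKR arrays, against 11.21, 11.61 and 11.46 on DBA arrays (difference -1.26, limma adjusted p = 0.0934). Tent5c differed by -0.99 (limma adjusted p = 0.105). At 10 of the 20 the crosses did not overlap, 6 with DBA and 4 with AKR F1 tumours higher, beside the background of 39.2% given above.

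Among 19 measured genes of IgA plasma cell homing and antibody transport (median 0.17, 15 higher in AKR F1 tumours, none passed), the 3 of smallest p were Tgfb1, Cxcl12 and Vcam1. Tgfb1, a cytokine that directs switching to IgA, read 9.08, 8.64 and 9.10 on AKR arrays, against 7.63, 8.31 and 7.60 on DBA arrays (difference 1.10, limma adjusted p = 0.0924). The chemokine gene Cxcl12 read 8.77, 7.62 and 8.49 on AKR arrays, against 9.56, 9.64 and 9.45 on DBA arrays (difference -1.25, limma adjusted p = 0.0992). The adhesion gene Vcam1 differed by -0.80 (limma adjusted p = 0.121). Tgfb1, Cxcl12 and Vcam1, chosen by smallest p, each had crosses that did not overlap. In the whole list this held for 6 of 19 genes, beside the background of 39.2% given above. Ccl28, the epithelial chemokine that draws IgA plasma cells into the mammary gland, read 6.94, 7.01 and 6.80 on AKR arrays, against 6.81, 6.82 and 6.62 on DBA arrays (difference 0.17, limma adjusted p = 0.363).

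Marker lists of other cell types were set beside the members. The skeletal muscle and adipocyte lists were highest on DBA replicate 1, at 8 of 8 and 4 of 5 genes. The same array was highest at 6 of 11 Ighm probe sets, at Cd79b and at 1 of 2 Ms4a1 probe sets, and the part of both lists in those values was not tested. Jchain was also high on DBA replicate 3, where the skeletal muscle list was at 6.06, its lowest, and the adipocyte list at 6.66. The salivary gland list was highest on AKR replicate 2, where Jchain had its lowest value. The Pigr probe sets disagreed on that array, which was the highest of the AKR arrays at the brighter probe set and the lowest at the other. Lymph node stroma markers (6 of 8 measured) had means of 7.51 to 8.22 on the AKR and 6.99 to 8.02 on DBA arrays. DBA replicate 1 was the highest of its cross. Of the 6, Glycam1 ranged over 5.76 log2 units and the others over 0.45 to 1.03, so Glycam1 moved these means most. It read 11.33, 6.48 and 7.46 on AKR arrays, against 10.21, 5.57 and 5.70 on DBA arrays. Whether it came from lymph node stroma or from other cells of the tumours was not tested. AKR replicate 2 was the highest array at 4 of the 6 genes, beside 32.4% of all probe sets. T and NK cell markers (13 of 15 measured) ran from 6.61 to 7.04 on the AKR and from 6.41 to 6.66 on DBA arrays, and their part in the members' values was not tested.

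**Figure D5:**
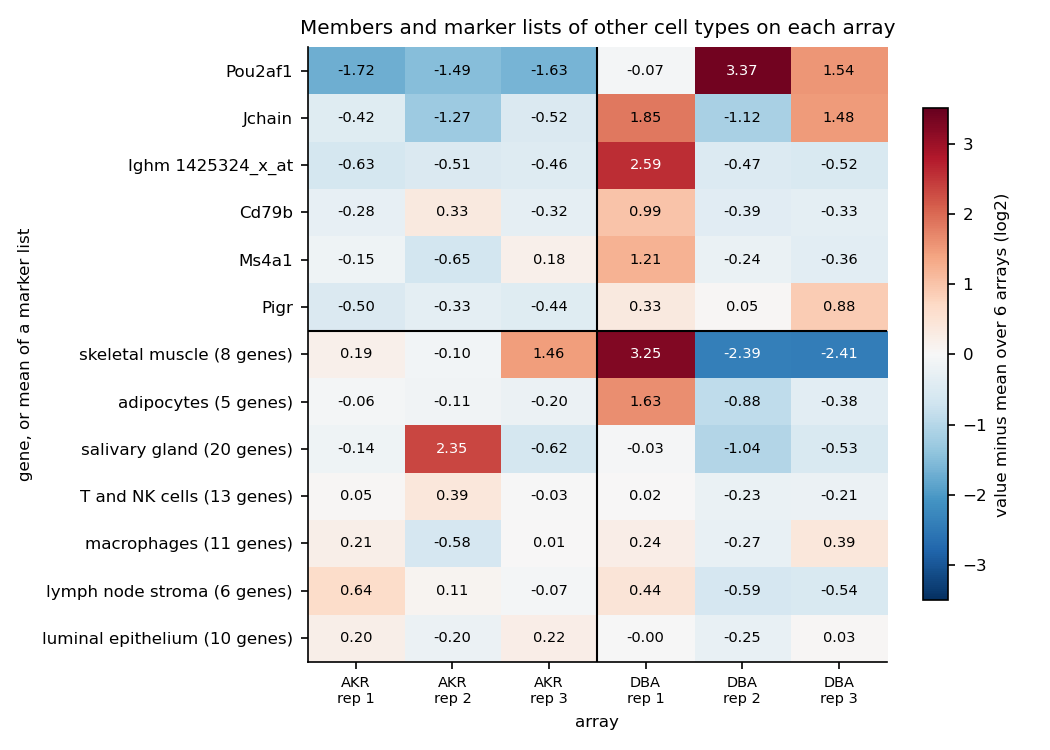
Value minus the mean over the 6 arrays (colour and printed number, log2) for 6 member probe sets (upper rows) and for the means of 7 marker lists of other cell types (lower rows) on each array (columns). The Ighm, Cd79b and Ms4a1 probe sets shown share their highest array, DBA replicate 1, with the skeletal muscle and adipocyte lists, whereas Pou2af1 peaks on DBA replicate 2 and Pigr on DBA replicate 3. The Ighm probe set shown was chosen as the one standing furthest above the other arrays on DBA replicate 1.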

How the data were processed

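Per the labels' protocols, total RNA came from tumours by Trizol extraction and was biotin-labelled for Affymetrix arrays. The authors deposited log2 values for 22690 probe sets on 6 arrays. The submitters' processing notes name MAS5 and RMA without saying which made these values, and the log2 scale was read from the values themselves, which run from 3.65 to 14.73. Source names in the labels gave the crosses, and replicate numbers follow accession order. The 64 control probe sets were left out. The platform annotation supplied gene symbols (20380 probe sets with 1 symbol, 691 with several, 1555 with none). The crosses were compared by a two-sided moderated test in limma 3.58.1 under R 4.3.3 (eBayes after lmFit), and p-values were adjusted by Benjamini-Hochberg over the 22626 probe sets with a threshold of 0.05. The code was first tested on simulated data. Differences are AKR minus DBA, a gene in a list is its brightest probe set, and fold changes are 2 to the power of the log2 difference. Levels of probe sets were ranked within a gene to take its brightest, averaged over lists and set against array quartiles and the median level. They do not rank genes by abundance. No detection calls were used, and dim probe sets can lie at background. Precision is limited by 3 arrays per cross.

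Members and gene lists were chosen with earlier results of these data known. Named genes were all member and other immunoglobulin probe sets, the 3 genes of smallest p in each pathway list, and the 5 genes most like Pou2af1, Jchain and Pigr. Genes named beyond these (Pou2f2, Prdm1, Ccl28) and the joint omission of AKR replicate 2 and DBA replicate 1 were chosen after seeing the data. Alternatives were quantile normalization, median centring, array weights, only probe sets above the median level, the mean over each gene's probe sets, a trended, robust prior and leaving out each array. Promoter sequences came from RefSeq (GRCm38.p6).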

Additional observations from a re-analysis of the deposited data

How the results depend on the processing

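The count of member probe sets that passed was 0 with all arrays and also 0 after quantile normalization, median centring, with only probe sets above the median level (which leaves 5 of the 20, of Ighm and Pigr), with a trended and robust prior and with 1 mean value per gene. Leaving out single arrays gave 0 to 1, the 1 being Pou2af1 without DBA replicate 1, and leaving out AKR replicate 2 as well also gave 1. With array weights it was 5 (Pou2af1, Jchain, Pax5 and both of Pigr), and 35 pathway and immunoglobulin genes passed, against 0 otherwise, but the weights stopped short of their convergence tolerance and 9969 of 22626 probe sets passed. Some named pathway genes differed less as 1 mean value per gene than at their brightest probe set. These were Foxo1 and Mef2c as given above, Cd22 (0.18), Dntt (0.15), Fcrla (0.30), Hsp90b1 (-0.91), Cxcl12 (-0.77) and Vcam1 (-0.65). Inpp5d differed more, at 0.51. Of 233 values of the members under alternatives, 205 kept direction and side of the threshold, 7 passed and 21 changed sign.

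The changes of sign lay at Ighm, Cd79b, Ms4a1 and Igha. With array weights Ighm 1427351_s_at was at 0.23 and Ms4a1 1450912_at at -0.0065, with median centring the latter at -0.00011, and with quantile normalization Ighm 1451949_at at -0.034. Without AKR replicate 2 and DBA replicate 1 together, Ighm 1427870_x_at was at 0.20, 1427351_s_at at 0.45, 1425247_a_at at 0.055, 1427329_a_at at 0.09 and 1427756_x_at at 0.18, Cd79b at 0.06 and Ms4a1 1423226_at at 0.31. Leaving out single arrays gave -0.47 to 0.19 for Ighm 1427870_x_at, -0.44 to 0.19 for 1427351_s_at, -1.18 to 0.05 for 1425247_a_at, -0.55 to 0.18 for 1427329_a_at and -0.74 to 0.32 for 1427756_x_at. The ranges were -0.42 to 0.27 for Cd79b, -0.69 to 0.09 for Ms4a1 1423226_at, -0.030 to 0.076 for Ms4a1 1450912_at, -0.92 to 0.23 for Igha 1421653_a_at and -1.27 to 0.070 for Igha 1425763_x_at. No paired analysis was possible because the labels give the samples no shared replicate numbers.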
